A study of Mus musculus with 24 samples.

Results

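The genotype by Pam3 interaction asks, gene by gene, whether bone marrow-derived macrophages of Ninj1 knockout mice responded to Pam3 by a different factor than wild-type macrophages. It is the log2 response of the knockout (Ninj1KO_Pam3 over Ninj1KO_NoPrime) minus the log2 response of wild type (WT_Pam3 over WT_NoPrime), so that a value below 0 means a smaller rise or a larger fall in the knockout. All 24 of the 24 libraries of the series entered, 6 in each of the 4 groups, and the interaction was estimated for 14435 expressed genes. Each gene with a called interaction was then placed by whether the genotypes differed in media, after Pam3, in both conditions or in neither.

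The cells were primary macrophages grown from mouse bone marrow, either of WT C57BL/6 mice or of Ninj1 knockout mice. WT_NoPrime and Ninj1KO_NoPrime were kept in media only, and WT_Pam3 and Ninj1KO_Pam3 were stimulated with Pam3. The sources used here do not state the design of the knockout allele, the strain background or age of the knockout mice, the age of the WT mice, or the dose and duration of Pam3. They also leave unsaid if each library stands for its own mouse or culture. The p-values therefore measure the spread between these libraries, which may be technical.

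Pam3 is the usual short name of Pam3CSK4, a synthetic copy of a bacterial lipopeptide that is sensed by the receptor pair TLR1 and TLR2 and signals through the adaptor MyD88 to NF-kB and the MAP kinases. Macrophages answer with cytokines, chemokines and, in a later layer that runs through interferon regulatory factors and STAT proteins, with antiviral and antigen-presentation genes. Ninj1 encodes a small membrane protein known for rupturing the plasma membrane of dying cells, an activity that was not measured here.

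The data are single-end RNA-seq counts, with library totals between 31302011 and 40663152 counted reads. The macrophage genes Adgre1, Csf1r, Cd68 and Lyz2 were abundant in all 24 libraries, with Csf1r between 1949 and 3415 CPM (the usual read counts per 1e+06 reads, on normalised library sizes) and Lyz2 between 18404 and 25235. Of markers of other cells, Cd3e of T cells reached at most 0.0672 CPM, but other listed markers were measured. Their summed CPM was 282 to 319 in media and 46.8 to 61.2 after Pam3 for the lymphocyte list, and 25.8 to 30.4 and 206 to 257 for the dendritic cell list. For the erythroid and megakaryocyte list it was 44.9 to 57.7 in media and 96.6 to 197 after Pam3, the highest in WT_Pam3 replicate 5. Such sums do not speak for each marker. With Pam3 in WT, 4 tested lymphocyte markers rose and 4 fell, 3 and 4 of the dendritic cell list, and 3 and 1 of the erythroid list. Among all 14435 tested genes, 5859 rose and 6376 fell. The labels call the WT cells male, yet the female-specific transcript Xist was at 233 to 796 CPM in all 24 libraries. Its lowest value was in WT_Pam3 replicate 5, and the next lowest was 488 in Ninj1KO_Pam3 replicate 4. The Y-linked genes Eif2s3y and Kdm5d were at 0, and Ddx3y and Uty reached at most 0.104 and 0.023 CPM. WT_Pam3 replicate 5 stood apart from its group: its correlation of log2 CPM with the other 5 lay between 0.983 and 0.985, against at least 0.994 among those 5. Its 10 most abundant genes took 12.2% of reads, where the median of the group was 9.56%. On the axis from the WT_NoPrime mean (0) to the WT_Pam3 mean (1) this library sat at 0.975. WT_Pam3 replicate 6 was close to it at 0.978, and the highest of the group was 1.01, so this measure did not set replicate 5 apart. Because of the correlation and the share of the 10 most abundant genes, the main counts are also given without WT_Pam3 replicate 5.

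The targeted gene was lower in the libraries labelled Ninj1KO. Ninj1 (chromosome 13, 49187485 to 49196244, GRCm38) was at 289, 308 and 325 CPM (lowest, median and highest of 6 libraries) in WT_NoPrime and at 151, 167 and 179 in Ninj1KO_NoPrime. The stimulated levels were 646, 785 and 1145 in WT_Pam3 and 409, 420 and 479 in Ninj1KO_Pam3. All knockout libraries were below all WT libraries of the same condition, and reads on the gene remained in the knockout. Which part of the gene the allele removes is not stated, so these levels separate the labelled genotypes without measuring how much function was lost. Ninj1 itself rose with Pam3 by 1.40 (SE 0.09) on the log2 scale in WT and by 1.36 (SE 0.09) in Ninj1KO. Its interaction was not called, at -0.04 (SE 0.12, adjusted p = 0.922), and its sign turned without WT_Pam3 replicate 5 (0.09) and without Ninj1KO_NoPrime replicate 3 (0.006).

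The responses of the 2 genotypes were nearly the same for most genes. Across the 14435 genes, which are not independent replicates, the log2 response in Ninj1KO and that in WT had a Pearson correlation of 0.986 and a major-axis slope of 0.983. A total of 110 genes had a called interaction at a Benjamini-Hochberg adjusted p under 0.05 (edgeR quasi-likelihood test), 0.762% of the genes tested. Of these, 85 were below 0 (0.589%) and 25 above 0 (0.173%). The median size of a called interaction was 0.41 on the log2 scale, 39 reached 0.5 and 7 reached 1.

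**Figure D1:**
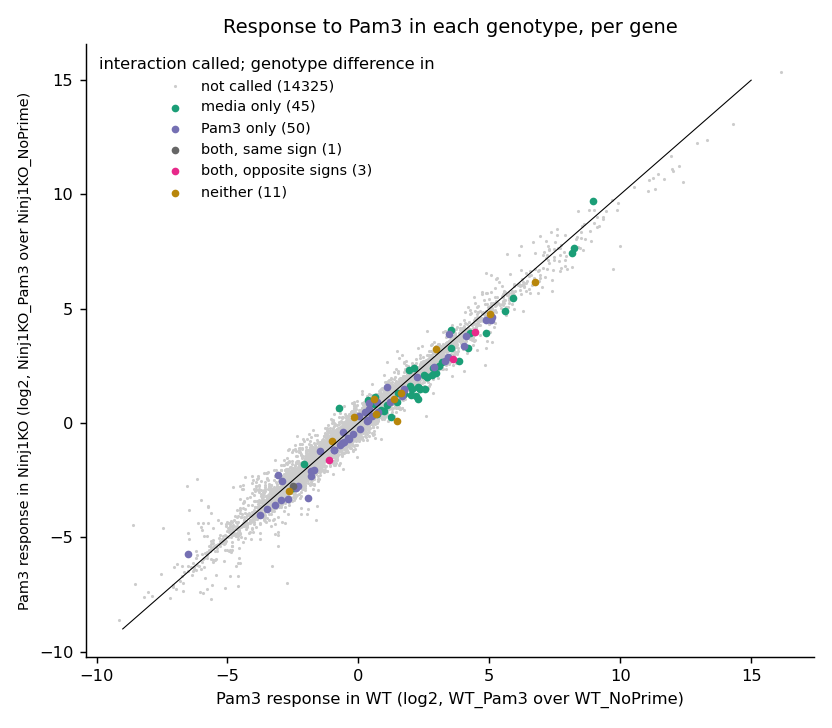
Log2 response to Pam3 in WT (x axis) and in Ninj1KO (y axis) for each tested gene, with the line of equal responses. Grey points had no called interaction, and coloured points are the 110 called genes by the condition in which the genotypes differed; most lie close to the line and more lie below it than above it.

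Without WT_Pam3 replicate 5, 14566 genes were tested and 544 had a called interaction (3.73%), 442 below 0 (3.03%) and 102 above 0 (0.7%). All 110 genes of the fit with 24 libraries were called again with the same sign. Leaving out WT_NoPrime replicate 3 or WT_NoPrime replicate 5 left 28 called genes each, and leaving out Ninj1KO_Pam3 replicate 3 left 37. The other leave-one-out fits gave 52 to 155 genes. A total of 24 genes were called in each of the 24 leave-one-out fits, 18 below 0 and 6 above 0, and the median called gene was called in 16.5 of them.

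**Figure D2:**
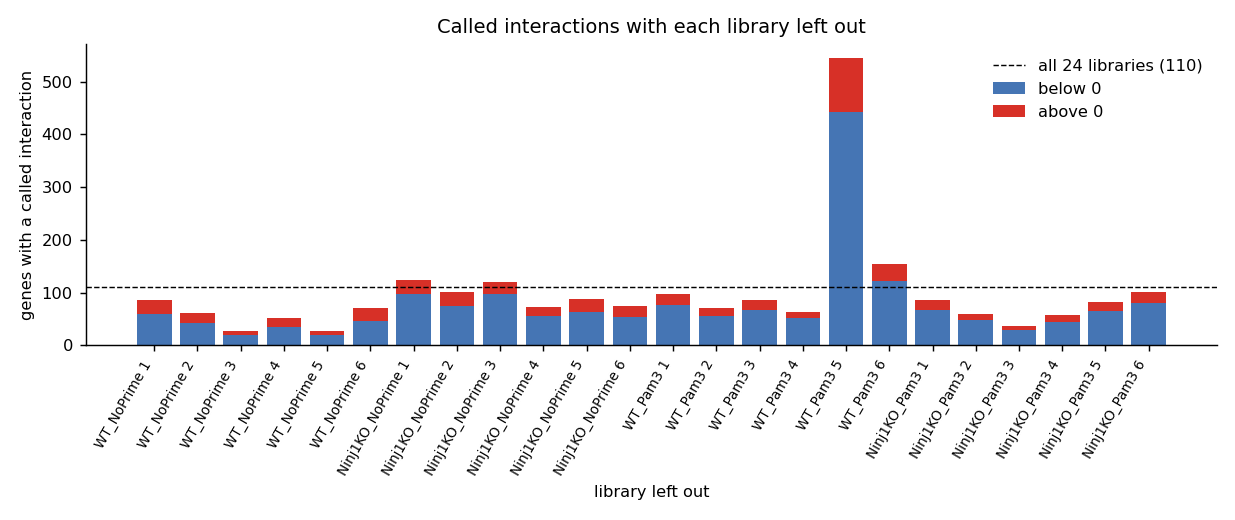
Number of genes with a called interaction when each library is left out in turn, split into below 0 (blue) and above 0 (red); the dashed line is the 110 genes of all 24 libraries. Leaving out WT_Pam3 replicate 5 gives 544, and leaving out WT_NoPrime replicate 3 or 5 gives 28.

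The sign of the interaction followed the direction of the WT response unevenly. Among all 14435 tested genes, 5859 rose and 6376 fell with Pam3 in WT. Of the 110 genes, 76 rose with Pam3 in WT, and 61 of those rose less in Ninj1KO. Another 32 fell in WT, and 23 of those fell further in Ninj1KO. By size, 39 responses were larger in Ninj1KO, 68 were smaller and 3 went in opposite directions. With WT_Pam3 replicate 5 left out, 308 of 358 genes that rose and 125 of 167 that fell in WT had an interaction below 0, and the sizes split into 185, 336 and 23. Among all tested genes whose mean response over the genotypes was above 4 on the log2 scale, the median interaction was -0.18 and 4.04% were called. For genes with a mean response of 2 to 4 it was -0.08 with 3.14% called, and for those of 0 to 1 it was -0.01 with 0.489% called. When WT_Pam3 replicate 5 was left out, the called shares of these bins were 10.8%, 14.2% and 3.2%.

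Placed by condition, 45 of the 110 genes differed between genotypes in media only, 50 after Pam3 only, 4 in both conditions and 11 in neither by the same threshold. Across all tested genes the genotypes differed for 438 genes in media (3.03%) and for 586 after Pam3 (4.06%). Split by direction, Ninj1KO was higher for 1.92% and lower for 1.12% of genes in media, and higher for 1.31% and lower for 2.75% after Pam3. Without WT_Pam3 replicate 5 those shares were 4.52%, 4.23%, 2.42% and 5.67%. Among the 45 genes of the media class, Ninj1KO was above WT for 36 and below for 9. Among the 50 genes of the Pam3 class it was below WT for 38 and above for 12. With WT_Pam3 replicate 5 left out the classes held 229, 235, 36 and 44 genes, and 94 of the 110 genes kept their class. By the signs of group means, without a test, the interaction had the same sign on the linear CPM scale for 108 of the 110, the exceptions being Hpse and Mertk. Where Ninj1KO was higher in media and lower after Pam3, or the reverse, the same sign follows from the levels themselves.

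**Figure D3:**
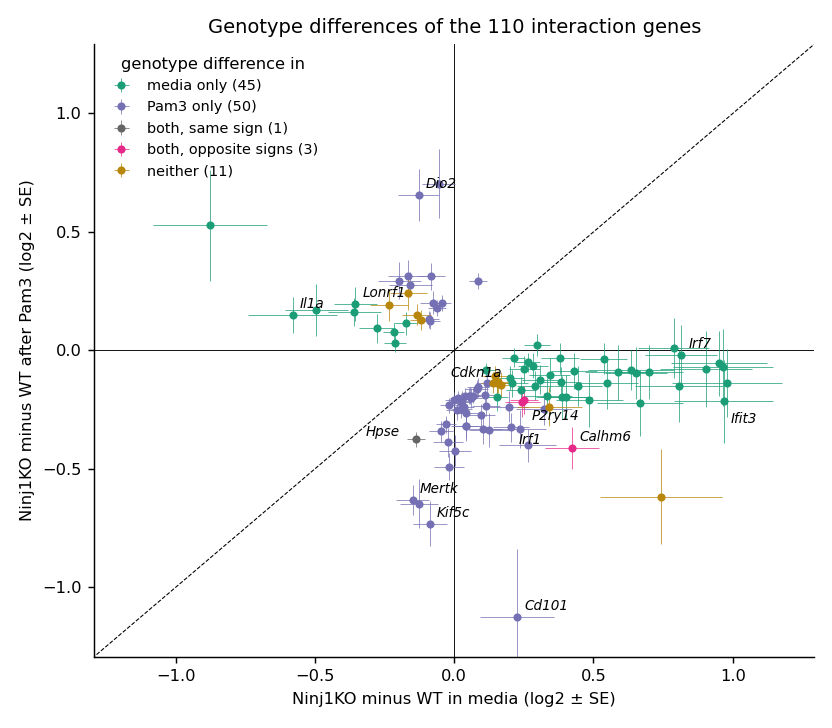
Ninj1KO minus WT in media (x axis) and after Pam3 (y axis), log2 with standard errors, for the 110 genes with a called interaction; the dashed diagonal marks equal differences, that is, no interaction. Genes of the media class spread along the x axis and those of the Pam3 class along the y axis, with Calhm6, P2ry14 and Cdkn1a to the right of 0 in media and below 0 after Pam3.

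Sequences upstream of transcription starts are printed for 6 of the called genes, because 12 of the 36 genes of the media class below 0 belonged to a list of interferon-stimulated genes and the Pam3 class held Irf1. They come from RefSeq promoter windows (GRCm38.p6, 250 bases before to 50 after a start) and read 5′ to 3′ on the strand of the gene, with motif matches in capitals. The motifs searched, on both strands, were GAAA, then NN, then GAAA (the core of the interferon-stimulated response element), TTCNNNGAA (the core of the STAT site called GAS) and GGGA, then NN, then TTCC (a form of the NF-kB site). Overlapping matches were allowed.
Ifit3, chr19:34583343-34583446, plus strand, 2 matches to the response element: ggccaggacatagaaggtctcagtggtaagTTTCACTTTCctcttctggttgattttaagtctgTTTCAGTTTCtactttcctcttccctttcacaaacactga
Ifit1, chr19:34640755-34640843, plus strand, 2 matches to the response element: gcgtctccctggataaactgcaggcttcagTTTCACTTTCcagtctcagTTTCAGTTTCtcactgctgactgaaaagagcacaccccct
Irgm1, chr11:48871421-48871480, minus strand, 2 overlapping matches to the response element: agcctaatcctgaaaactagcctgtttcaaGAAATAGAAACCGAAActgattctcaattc
Calhm6, chr10:34127997-34128066, minus strand, 1 match to the response element: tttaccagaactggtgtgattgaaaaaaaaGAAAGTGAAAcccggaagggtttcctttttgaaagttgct
Irf1, chr11:53769894-53769962, plus strand, 1 match to GAS: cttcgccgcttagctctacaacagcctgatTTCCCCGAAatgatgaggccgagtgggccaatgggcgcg
Csf1, chr3:107760584-107760653, minus strand, 1 match to the NF-kB site: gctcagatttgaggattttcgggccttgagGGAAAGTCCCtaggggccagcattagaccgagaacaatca

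A response-element match stood in 3.44% of all 32851 promoter windows, a GAS match in 8.3% and an NF-kB match in 1.47%. By symbol, 10060 of the 14435 tested genes had a window, and 4.1% of those held the response element. Of the 26 genes with a window among the media class below 0, 8 held it (30.8%), and of the 29 in the Pam3 class below 0, 0 did. A GAS match stood in 3 of these 26 (11.5%) and 2 of these 29 (6.9%), against 8.15% of tested genes with a window. For the NF-kB site the numbers were 2 (7.69%) and 1 (3.45%), against 1.84%. None of the 20 genes with a window and an interaction above 0 held any of the 3 motifs. Of 39 genes with a window in the list of interferon-stimulated genes, 26 held the response element (66.7%). These are matches of letters within a window and not measured binding.

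Genes that differed in media only are described first. In this class the genotypes started at different levels and reached levels after Pam3 that did not differ by the test. The class below 0 held 12 of the 50 tested genes of the interferon-stimulated list, which were Gbp2, Ifi204, Ifi206, Ifit1, Ifit3, Ifit3b, Irf7, Irf9, Irgm1, Oasl2, Rtp4 and Xaf1. No member of that list was called above 0, and all 50 fitted interactions were below 0, with a median of -0.67 against -0.02 over all tested genes. Of all 14435 tested genes, 0.589% were called below 0, and 6619 had a fitted interaction above 0. In media, 43 of the 50 were called higher in Ninj1KO (median 0.57), against 1.92% of all tested genes, and 48 without WT_Pam3 replicate 5, against 4.52%. After Pam3 1 was called higher with and without that library (median -0.08 with it), against 1.31% and 2.42% of all tested genes. All 50 rose with Pam3 in WT, by a median of 2.79 in WT and 2.15 in Ninj1KO. Among all 14435 tested genes 5859 rose in WT, and the medians were -0.05 and -0.07.

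Ifit3 encodes an interferon-induced protein with tetratricopeptide repeats that binds viral RNA complexes. It was at 35.4, 43.1 and 48.8 CPM in WT_NoPrime and at 57.0, 65.6 and 167 in Ninj1KO_NoPrime. With Pam3 the values were 178, 197 and 257 in WT and 166, 173 and 190 in Ninj1KO. The genotypes did not overlap in media and overlapped after Pam3, with the highest WT value in WT_Pam3 replicate 5 and the highest Ninj1KO_NoPrime value in replicate 1. The rise was 2.26 (SE 0.18) in WT and 1.08 (SE 0.18) in Ninj1KO on the log2 scale, an interaction of -1.18 (SE 0.25, adjusted p = 0.0221). Its neighbour Ifit1, of the same family, had media medians of 38.3 and 53.7 CPM and Pam3 medians of 1109 and 1008, with an interaction of -0.96 (SE 0.22, adjusted p = 0.0344). Ifit1 was called in 12 of 24 leave-one-out fits. Only unique reads were counted, so that reads can be lost between near-identical copies such as Ifit3 and Ifit3b, Tgtp2 and its copies, and Ifi206 and its relatives.

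Irf7, an interferon regulatory factor that drives interferon production, was at 124, 150 and 164 CPM in WT_NoPrime and at 210, 229 and 439 in Ninj1KO_NoPrime. Its levels after Pam3 were 649, 731 and 930 in WT and 678, 739 and 795 in Ninj1KO. No knockout library was as low in media as any WT library, while the Pam3 ranges were nested. The media difference was 0.82 (SE 0.13, adjusted p = 0.000484), the Pam3 difference -0.02 (SE 0.13, adjusted p = 0.961), and the interaction -0.83 (SE 0.18, adjusted p = 0.0264). Rtp4, an interferon-induced chaperone of receptors, had media medians of 77.4 and 107 CPM and Pam3 medians of 374 and 350, with an interaction of -0.75 (SE 0.16, adjusted p = 0.0221). Tap1, the transporter that feeds peptides to class I molecules, had media ranges of 89.2 to 97.7 CPM in WT and 112 to 184 in Ninj1KO. After Pam3 it spanned 529 to 634 and 473 to 551, which overlap, and its interaction was -0.60 (SE 0.12, adjusted p = 0.0197).

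Single libraries weighed on the interferon genes. The median log2 CPM of the 50 listed genes was 6.87 in Ninj1KO_NoPrime replicate 1, between 5.77 and 6.19 in the other 5 of that group, and between 5.18 and 5.55 in WT_NoPrime. Without Ninj1KO_NoPrime replicate 1 the number of list members called below 0 was 29 and without WT_Pam3 replicate 5 it was 44, of which 43 were in the media class. It was 0 without WT_NoPrime replicate 3 and 0 without WT_NoPrime replicate 5, fits that called 28 genes each. Without Ninj1KO_Pam3 replicate 3 it was 1, and in the remaining fits it was 4 to 23. Ifit3, Irf7 and Rtp4 were each called in 21 of 24 leave-one-out fits, losing the call without WT_NoPrime replicate 3, WT_NoPrime replicate 5 and Ninj1KO_Pam3 replicate 3. Xaf1 was called in 22 of 24, Ifit1 in 12, and Irgm1 and Oasl2 in 11 each. The remaining called list members held in fewer fits: Ifi206 and Ifit3b in 8 each, Gbp2 in 7, Ifi204 in 5 and Irf9 in 4.

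Markers of other cells also differed between the genotypes in media. The summed CPM of the 15 listed granulocyte markers was 82.0 to 95.1 in WT_NoPrime and 104 to 123 in Ninj1KO_NoPrime. After Pam3 it was 238 to 275 in WT and 260 to 336 in Ninj1KO. Most of these markers did not share the rise of the sum with Pam3. Of the 14 tested, 11 fell with Pam3 in WT and 2 rose, with a median log2 response of -1.50. The summed CPM of the 16 listed stromal and endothelial markers was 67.4 to 80.4 in WT_NoPrime and 84.5 to 141 in Ninj1KO_NoPrime. After Pam3 it was 149 to 219 in WT and 210 to 272 in Ninj1KO. Of the 15 tested, 5 rose and 1 fell with Pam3 in WT. Among all 14435 tested genes, 5859 rose and 6376 fell. With all 24 libraries edgeR called an interaction for 0 granulocyte and 0 stromal markers, as did DESeq2, and 0 and 1 of them had an unadjusted p under 0.05. Among all 14435 tested genes, 1768 had an unadjusted p under 0.05. When WT_Pam3 replicate 5 was left out, edgeR called 1 stromal and endothelial marker, Kdr. The called shares over all tested genes were 0.762% with all 24 libraries and 3.73% without that library. In media 4 of 14 granulocyte and 8 of 15 stromal markers were called higher in Ninj1KO, and after Pam3 2 and 5, with 0 lower. Of all tested genes, 1.92% were called higher and 1.12% lower in media, and 1.31% and 2.75% after Pam3. The highest stromal sums in Ninj1KO_NoPrime were in replicates 4 and 6, and the highest interferon level was in replicate 1. Their part in the interaction was not tested, and in bulk RNA fewer cells of a type and less RNA per cell cannot be told apart.

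Outside the interferon list, the media class below 0 held further genes. Csf1, the growth factor that macrophages need to survive, was at 14.6, 15.3 and 16.6 CPM in WT_NoPrime and 17.4, 19.7 and 23.9 in Ninj1KO_NoPrime. It reached 126, 141 and 154 in WT and 121, 129 and 134 in Ninj1KO. The genotypes were apart in media and overlapped after Pam3, and the interaction was -0.52 (SE 0.09, adjusted p = 0.0115). Mmp14, a membrane-bound matrix metalloprotease, was at 4.06, 4.56 and 4.91 CPM in WT_NoPrime and 5.13, 6.15 and 8.61 in Ninj1KO_NoPrime, and after Pam3 at medians of 1378 and 1354. Its Pam3 difference was -0.03 (SE 0.07) and its interaction -0.57 (SE 0.11, adjusted p = 0.0115). The log2 difference between genotypes thus lay in the low media levels.

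Nfkbie, an inhibitor of NF-kB that is itself induced by it, showed the same arrangement. Its media ranges were 15.1 to 16.8 CPM in WT and 17.8 to 20.3 in Ninj1KO, its Pam3 ranges 280 to 329 and 281 to 303, and its interaction -0.31 (SE 0.06, adjusted p = 0.0115). Cxcl16, a membrane-anchored chemokine and scavenger receptor, ranged from 124 to 137 CPM and from 150 to 159 in media. After Pam3 it was at 688, 705 and 928 in WT, the highest being WT_Pam3 replicate 5, and at 617, 661 and 699 in Ninj1KO. Its interaction was -0.41 (SE 0.08, adjusted p = 0.0115). Csf1, Mmp14, Nfkbie and Cxcl16 were called in all 24 leave-one-out fits. Cd69, an early activation marker, had an interaction of -0.72 (adjusted p = 0.0493) and was called in 6 of the 24.

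The receptor of the ligand was in this class. Tlr2 was at 77.8, 86.1 and 92.7 CPM in WT_NoPrime and 92.9, 98.2 and 106 in Ninj1KO_NoPrime, and at 947, 973 and 1028 in WT_Pam3 and 940, 963 and 984 in Ninj1KO_Pam3. The media ranges met without crossing and the Pam3 ranges overlapped. Its interaction was -0.24 (SE 0.06, adjusted p = 0.0396), and the call held in 5 of 24 leave-one-out fits. Tlr1, its partner, had an interaction of -0.06 (SE 0.06, adjusted p = 0.709). Myd88 had one of -0.24 (SE 0.06, adjusted p = 0.0632), which was -0.20 with an adjusted p of 0.0152 without WT_Pam3 replicate 5. Of the 23 tested genes of the list of TLR1/TLR2 sensing and MyD88 signalling, 1 was called with all libraries and 2 without WT_Pam3 replicate 5, both below 0. Of all tested genes, 0.762% and 3.73% were called.

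Among the 9 genes of the media class above 0, Ninj1KO started lower. Fcgr2b, the inhibitory Fc receptor, was at 209, 234 and 249 CPM in WT_NoPrime and 196, 198 and 212 in Ninj1KO_NoPrime. It rose to 969, 1004 and 1061 in WT and to 1036, 1056 and 1109 in Ninj1KO. The ranges overlapped in both conditions, at 1 end in each, and the interaction was 0.30 (SE 0.05, adjusted p = 0.0108). Lonrf1, which encodes a ring-finger protein with a LON domain, was at 7.38, 8.14 and 8.92 CPM in WT_NoPrime and 6.01, 6.28 and 6.94 in Ninj1KO_NoPrime, without overlap. After Pam3 it was at 9.01, 13.1 and 13.6 in WT, the lowest being WT_Pam3 replicate 5, and at 13.4, 14 and 15.3 in Ninj1KO, and its interaction was 0.55 (SE 0.11, adjusted p = 0.0115). Both were called in all 24 leave-one-out fits.

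Il1a, the alarmin cytokine interleukin 1 alpha, was at 1.11, 1.21 and 1.33 CPM in WT_NoPrime and 0.424, 0.791 and 1.31 in Ninj1KO_NoPrime. It rose to 514, 622 and 665 in WT and to 642, 662 and 739 in Ninj1KO. The groups overlapped in both conditions, with the lowest WT_Pam3 value in replicate 5. The interaction was 0.73 (SE 0.18, adjusted p = 0.0471), and it was called in 4 of 24 leave-one-out fits. Il20rb, a subunit of receptors for interleukins of the 20 family, had an interaction of 0.52 (SE 0.11, adjusted p = 0.0258). Rims3, of a family known for vesicle release at synapses, had one of 0.67 (SE 0.16, adjusted p = 0.0396).

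**Figure D4:**
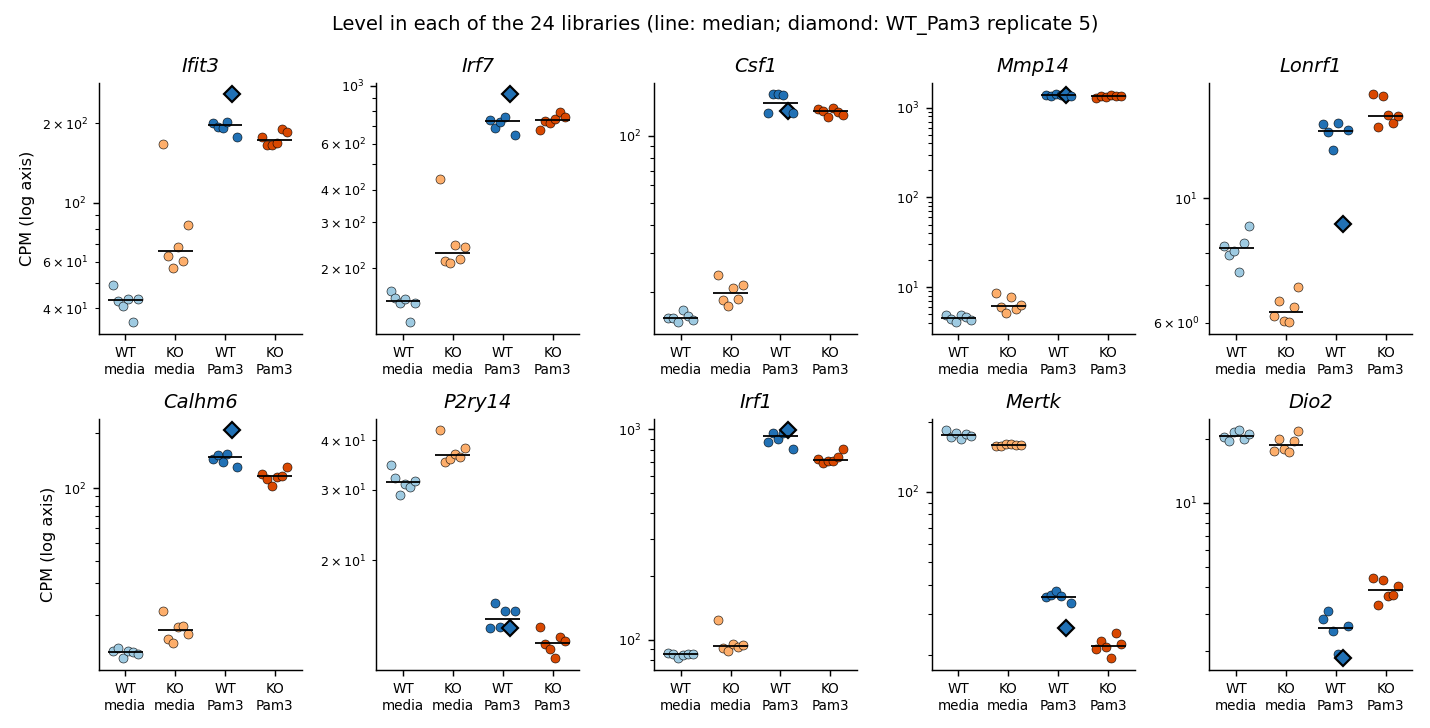
CPM of 10 genes in each of the 24 libraries on a log axis, with group medians as lines and WT_Pam3 replicate 5 as a diamond. Ifit3, Irf7, Csf1, Mmp14 and Lonrf1 differed between genotypes in media, Irf1, Mertk and Dio2 after Pam3, and Calhm6 and P2ry14 in both, with Ninj1KO above WT in media and below WT after Pam3.

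Genes that differed in both conditions were 4. Calhm6 (chromosome 10, 34126067 to 34127984, minus strand), which encodes a calcium homeostasis modulator family channel, was at 11.6, 12.6 and 13.2 CPM in WT_NoPrime and 14.2, 16.6 and 21.2 in Ninj1KO_NoPrime. After Pam3 it was at 131, 148 and 209 in WT and at 103, 116 and 130 in Ninj1KO. Every knockout library was above every WT library in media and below every WT library after Pam3, also without WT_Pam3 replicate 5, which held the value of 209. The media difference was 0.42 (SE 0.10, adjusted p = 0.0149), the Pam3 difference -0.41 (SE 0.09, adjusted p = 0.00639) and the interaction -0.83 (SE 0.13, adjusted p = 0.00904). In fold terms on the log2 scale it rose by 3.62 in WT and 2.79 in Ninj1KO.

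P2ry14, a receptor for UDP-glucose and related sugars, moved the other way with Pam3. It was at 29.1, 31.4 and 34.7 CPM in WT_NoPrime and 35.3, 36.6 and 42.5 in Ninj1KO_NoPrime, and fell to 13.5, 14.2 and 15.6 in WT and 11.3, 12.4 and 13.6 in Ninj1KO. The media groups were apart and the Pam3 groups touched. The fall was 1.14 in WT and 1.60 in Ninj1KO in size on the log2 scale, and the interaction was -0.46 (SE 0.08, adjusted p = 0.00904). Cdkn1a, the p21 inhibitor of cyclin-dependent kinases, was at 90.2, 101 and 106 CPM in WT_NoPrime and 106, 118 and 138 in Ninj1KO_NoPrime. After Pam3 it was at 1866, 2288 and 2341 in WT and 1766, 1872 and 2011 in Ninj1KO, and its interaction was -0.46 (SE 0.09, adjusted p = 0.0115). Its groups overlapped in both conditions, and all 3 of these genes were called in all 24 leave-one-out fits.

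Hpse, the heparan sulfate-cleaving enzyme heparanase, was the 1 gene of the 110 called lower in Ninj1KO in both conditions with all 24 libraries. Without WT_Pam3 replicate 5, 19 genes had a called difference of the same sign in both conditions, Mertk and Mrc1 among them, and 17 one of opposite signs. It was at 492, 512 and 521 CPM in WT_NoPrime, 455, 460 and 484 in Ninj1KO_NoPrime, 85.3, 89.7 and 91.2 in WT_Pam3 and 65.1, 68.9 and 72.7 in Ninj1KO_Pam3. The genotypes did not overlap in either condition. The difference was -0.14 (SE 0.03) in media and -0.37 (SE 0.03) after Pam3, and the interaction -0.24 (SE 0.04, adjusted p = 0.0115). On the linear scale the sign turned, since the knockout started lower and lost fewer CPM.

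Genes that differed after Pam3 only came next. This class of 50 was mixed: 24 rose with Pam3 in WT, 24 fell and 2 had no called WT response. Irf1 (chromosome 11, 53770014 to 53778374), an early transcription factor of the interferon pathway, was at 81.7, 85.2 and 86.4 CPM in WT_NoPrime and 88.3, 93.6 and 124 in Ninj1KO_NoPrime. It rose to 803, 927 and 994 in WT and to 692, 716 and 811 in Ninj1KO. The media ranges were apart by a small gap, the Pam3 ranges overlapped at 1 end, and the highest media value was again Ninj1KO_NoPrime replicate 1. Its Pam3 difference was -0.33 (SE 0.06, adjusted p = 0.00213), its media difference 0.20 (SE 0.06, adjusted p = 0.0854) and its interaction -0.53 (SE 0.09, adjusted p = 0.00904). With WT_Pam3 replicate 5 left out the media difference passed too, and Irf1 joined the genes that differed in both conditions with opposite signs.

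Il15, a cytokine for natural killer and memory T cells, was at 18.4, 19.9 and 20.6 CPM in WT_NoPrime and 19.0, 20.4 and 26.7 in Ninj1KO_NoPrime. Stimulated levels were 131, 147 and 162 in WT and 108, 114 and 130 in Ninj1KO, without overlap. The interaction was -0.43 (SE 0.09, adjusted p = 0.026). Of the 26 tested cytokines and growth factors, Csf1 and Il15 were called below 0 and Il1a above 0, with and without WT_Pam3 replicate 5. Of all tested genes, 0.762% were called with that library and 3.73% without it. Tnf (-0.19, adjusted p = 0.456), Il1b (-0.69, adjusted p = 0.387) and Il6 (-1.22, adjusted p = 0.531) were not called. Il1b and Il6 were near the detection limit in media, with medians of 0.502 and 0 CPM in WT_NoPrime, so their log2 responses rest on few reads.

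Kif5c, a kinesin motor subunit, fell further in Ninj1KO. It was at 21, 21.3 and 23.3 CPM in WT_NoPrime and 19.3, 19.9 and 22.1 in Ninj1KO_NoPrime, and fell to 2.50, 3.54 and 4.04 in WT and 1.90, 2.02 and 2.16 in Ninj1KO. Its Pam3 groups did not overlap, and its interaction was -0.64 (SE 0.11, adjusted p = 0.00999). Ighm, the immunoglobulin mu constant region, was at media medians of 198 CPM in both genotypes. It fell to 37.6, 39.0 and 50.3 in WT, the highest being WT_Pam3 replicate 5, and to 26.9, 28.9 and 30.9 in Ninj1KO, an interaction of -0.47 (SE 0.08, adjusted p = 0.00904). Slc37a2, a sugar-phosphate transporter of the endoplasmic reticulum, had an interaction of -0.26 (SE 0.04, adjusted p = 0.00904).

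Mertk, the receptor by which macrophages take up dying cells, was at 169, 176 and 185 CPM in WT_NoPrime and 157, 159 and 161 in Ninj1KO_NoPrime. It fell to 26.0, 35.5 and 37.3 in WT, the lowest being WT_Pam3 replicate 5, and to 19.3, 21.8 and 24.7 in Ninj1KO. The knockout libraries were below the WT libraries in both conditions, although the media difference did not pass (-0.15, SE 0.06, adjusted p = 0.216). The Pam3 difference was -0.63 (SE 0.06, adjusted p = 7.11e-07) and the interaction -0.48 (SE 0.09, adjusted p = 0.0108), or -0.55 with an adjusted p of 6.65e-07 without WT_Pam3 replicate 5. On the linear scale Mertk lost fewer CPM in Ninj1KO. Cd101, an inhibitory surface protein, had the largest interaction of the class, -1.35 (SE 0.32, adjusted p = 0.0382), on WT levels of 0.217 to 0.408 CPM after Pam3, and was called in 7 of 24 leave-one-out fits.

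Mertk belongs to a list of 38 lysosome and phagocytosis genes, of which 2 were called below 0 (Mertk and Gla, the lysosomal alpha-galactosidase). Of all tested genes, 0.589% were called below 0. When WT_Pam3 replicate 5 was left out, the list count was 11, all below 0, beside 3.03% of all tested genes. The 11 included Cd68 (-0.20), a lysosomal glycoprotein, and Lipa (-0.24), the lysosomal acid lipase. After Pam3, 15 of the 38 were called lower in Ninj1KO and 0 higher, against 2.75% and 1.31% of all tested genes. In media 4 were lower and 1 higher, against 1.12% and 1.92%. Without WT_Pam3 replicate 5 the counts were 21 and 0 after Pam3 and 6 and 4 in media. The shares of all tested genes were then 5.67% and 2.42% after Pam3 and 4.23% and 4.52% in media. The median log2 response of the list to Pam3 was -0.36 in WT and -0.58 in Ninj1KO. Among the 25 macrophage identity genes, Mertk alone was called with all libraries, and Cd68 and Mrc1, the mannose receptor (-0.26), joined it without WT_Pam3 replicate 5. The called shares over all tested genes were 0.762% and 3.73%.

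Of 23 tested cholesterol synthesis genes, 20 rose with Pam3 in WT, beside 5859 of all 14435 tested genes. An interaction was called for 3, all below 0, beside 0.589% of all tested genes called below 0. Insig1, the sterol sensor that restrains this pathway, was at 111, 114 and 118 CPM in WT_NoPrime and 102, 109 and 124 in Ninj1KO_NoPrime, and reached 367, 379 and 405 in WT and 282, 300 and 319 in Ninj1KO. Its Pam3 groups were apart and its media groups overlapped, and the interaction was -0.30 (SE 0.06, adjusted p = 0.0212). Lss, lanosterol synthase, had one of -0.21 (SE 0.05, adjusted p = 0.0264), and Nsdhl, a later enzyme of the pathway, one of -0.25 (SE 0.06, adjusted p = 0.0382). These were the 3 called members. Without WT_Pam3 replicate 5, 9 were called, including the mevalonate decarboxylase Mvd (-0.33), all below 0, beside 3.03% of all tested genes. All 23 fitted interactions were below 0, with a median of -0.21. Over all 14435 tested genes the median was -0.02, and 6619 were above 0. After Pam3 6 of the 23 were called lower in Ninj1KO, and 12 without WT_Pam3 replicate 5, against 2.75% and 5.67% of all tested genes. Nsdhl was called in 5 of 24 leave-one-out fits, Lss in 13 and Insig1 in 21.

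In the Pam3 class above 0, some genes fell less and others rose more in Ninj1KO. Dio2, the deiodinase that activates thyroid hormone, was at 19.6, 20.8 and 22.1 CPM in WT_NoPrime and 17.3, 18.8 and 21.9 in Ninj1KO_NoPrime. It fell to 1.85, 2.56 and 3.10 in WT and to 3.30, 3.88 and 4.43 in Ninj1KO. All knockout libraries were above all WT libraries after Pam3, and the interaction of 0.78 (SE 0.13, adjusted p = 0.00904) had the smallest p above 0. Slc36a1, a lysosomal amino acid transporter, fell from media medians of 136 and 129 CPM to 15, 18.7 and 19.6 in WT and 20.4, 22.7 and 24 in Ninj1KO, an interaction of 0.40 (SE 0.07, adjusted p = 0.0115). Gpr155, a lysosomal cholesterol-sensing protein, fell from medians of 72.5 and 70.9 CPM to 0.736 in WT and 1.28 in Ninj1KO, with overlap, an interaction of 0.76 (SE 0.16, adjusted p = 0.0218).

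Kdm6b, a demethylase of histone H3 lysine 27 induced by NF-kB, rose more in Ninj1KO. It was at 14.8, 16.9 and 17.3 CPM in WT_NoPrime and 13, 14.5 and 16.3 in Ninj1KO_NoPrime, and at 26.5, 36.1 and 39.7 in WT_Pam3 and 41.1, 43.2 and 47.3 in Ninj1KO_Pam3. The Pam3 groups did not overlap, with WT_Pam3 replicate 5 lowest. The interaction was 0.48 (SE 0.10, adjusted p = 0.0258), or 0.41 without that library. Plk3, a stress-responsive kinase, rose from medians of 2.53 and 2.25 CPM to 27.8 in WT and 33.6 in Ninj1KO, without overlap after Pam3, an interaction of 0.43 (SE 0.09, adjusted p = 0.026). Fam43a (0.49), the phosphatase Ptpn7 (0.24) and the heparan sulfate sulfotransferase Hs6st1 (0.24) completed the named genes of this class.

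The 11 genes in neither class had a called interaction and no called genotype difference. Pfkfb3, which makes the activator of glycolytic phosphofructokinase, was at 76.0, 76.9 and 78.7 CPM in WT_NoPrime and 64.1, 65.6 and 67.3 in Ninj1KO_NoPrime, and at 86.9, 121 and 137 in WT_Pam3 and 124, 132 and 148 in Ninj1KO_Pam3. The media groups were well apart, yet the media difference missed the threshold (-0.23, SE 0.07, adjusted p = 0.0593). Its interaction was 0.42 (SE 0.10, adjusted p = 0.0312), and without that library it joined the media class. Icam1, an adhesion molecule induced by NF-kB, had an interaction of -0.25 (SE 0.06, adjusted p = 0.0455), with medians of 79.4 and 85.9 CPM in media and 2615 and 2410 after Pam3. Ccl7, a monocyte chemokine, had one of -0.58 (SE 0.14, adjusted p = 0.0496), and it was called in 7 of 24 leave-one-out fits. Icam1 was called in 3 of them and Pfkfb3 in 15.

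In several lists more genes were called without WT_Pam3 replicate 5, as among all tested genes, where the called share went from 0.762% to 3.73%. Of 25 antigen presentation genes, Tap1 and Tapbp were called below 0 with all 24 libraries, and 15 without that library. These 15 held 9 of the media class, among them Tap1, and 5 of the Pam3 class, among them H2-DMb1, a chaperone of class II peptide loading, and Ciita, the class II transactivator. H2-DMb1 was at 40.3, 42.6 and 58.4 CPM in WT_Pam3, the highest being replicate 5, and at 33.9, 35.4 and 39.1 in Ninj1KO_Pam3. Its interaction was -0.35 (adjusted p = 0.064) with all libraries and -0.26 (adjusted p = 0.005) without replicate 5. For Ciita the values were -0.31 (adjusted p = 0.366) and -0.41 (adjusted p = 0.00947).

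Ptgs2, the inducible cyclooxygenase, was at 0.0991, 0.298 and 0.392 CPM in WT_NoPrime and 0.448, 0.562 and 0.645 in Ninj1KO_NoPrime. After Pam3 it was at 1567 in WT_Pam3 replicate 5, 2920 to 3400 in the other 5 and 2745 to 3406 in Ninj1KO. Its interaction went from -0.94 (adjusted p = 0.284) to -1.07 (adjusted p = 0.0103) without the library, and the media levels behind it are under 1 CPM. Among 26 chemokines and chemokine receptors, Cxcl16 and Ccl7 were called with all libraries, and 5 without it, beside 0.762% and 3.73% of all tested genes. Cxcl2 (-0.84) and Cxcl10 (-0.64) were among the 5. Cxcl2 had media medians of 0.829 CPM in WT and 1.17 in Ninj1KO, so its log2 response also rests on low media levels. Of 23 inflammasome and pyroptosis genes, none was called with all libraries. Without WT_Pam3 replicate 5, 4 were called, all below 0, beside 3.03% of all tested genes. They included Casp4 (-0.32), the sensor of cytosolic lipopolysaccharide. By edgeR 8 of the 23 had an unadjusted p under 0.05, and with all 24 libraries DESeq2 called 2, Casp4 among them, and limma voom called 4. For comparison, 1768 of all 14435 tested genes had an unadjusted p under 0.05 by edgeR. DESeq2 called 82 genes above 0 and 258 below 0 in all, and limma voom 127 and 515.

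Among the lists with no called interaction with all 24 libraries, beside 0.762% of all tested genes, were the immediate early genes and MAP kinase phosphatases (0 of 26), the unfolded protein and integrated stress response (0 of 24), the NRF2 and antioxidant genes (0 of 22), the mitochondrially encoded transcripts (0 of 10) and the LXR targets (0 of 21). The inhibitor Nfkbia, an immediate NF-kB target, had an interaction of -0.17 (SE 0.06, adjusted p = 0.235). In the same order, edgeR gave 5, 4, 6, 0 and 6 genes at an unadjusted p under 0.05, DESeq2 called 0, 0, 1, 0 and 1, and limma voom called 1, 1, 2, 0 and 3. With WT_Pam3 replicate 5 left out edgeR called 0, 0, 1, 0 and 2, beside 3.73% of all tested genes. Over all 14435 genes tested with all 24 libraries, 1768 had an unadjusted p under 0.05 by edgeR. DESeq2 called 82 of them above 0 and 258 below 0, and limma voom 127 and 515. The 26 nitric oxide, prostaglandin and antimicrobial effectors also had 0 calls by edgeR, with 10 at an unadjusted p under 0.05, 1 called by DESeq2 and 5 by limma voom, and 4 by edgeR without WT_Pam3 replicate 5. For the dendritic cell (10 tested), lymphocyte (8), mast cell (3) and erythroid (5) markers edgeR called 0, with 5, 2, 0 and 0 at an unadjusted p under 0.05 and 1, 1, 0 and 0 called by DESeq2, and without that library 1, 1, 0 and 0. Of 47 tested genes within 5 Mb of Ninj1, 1 had a called interaction, and 3 without that library, beside 0.762% and 3.73% of all tested genes.

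**Figure D5:**
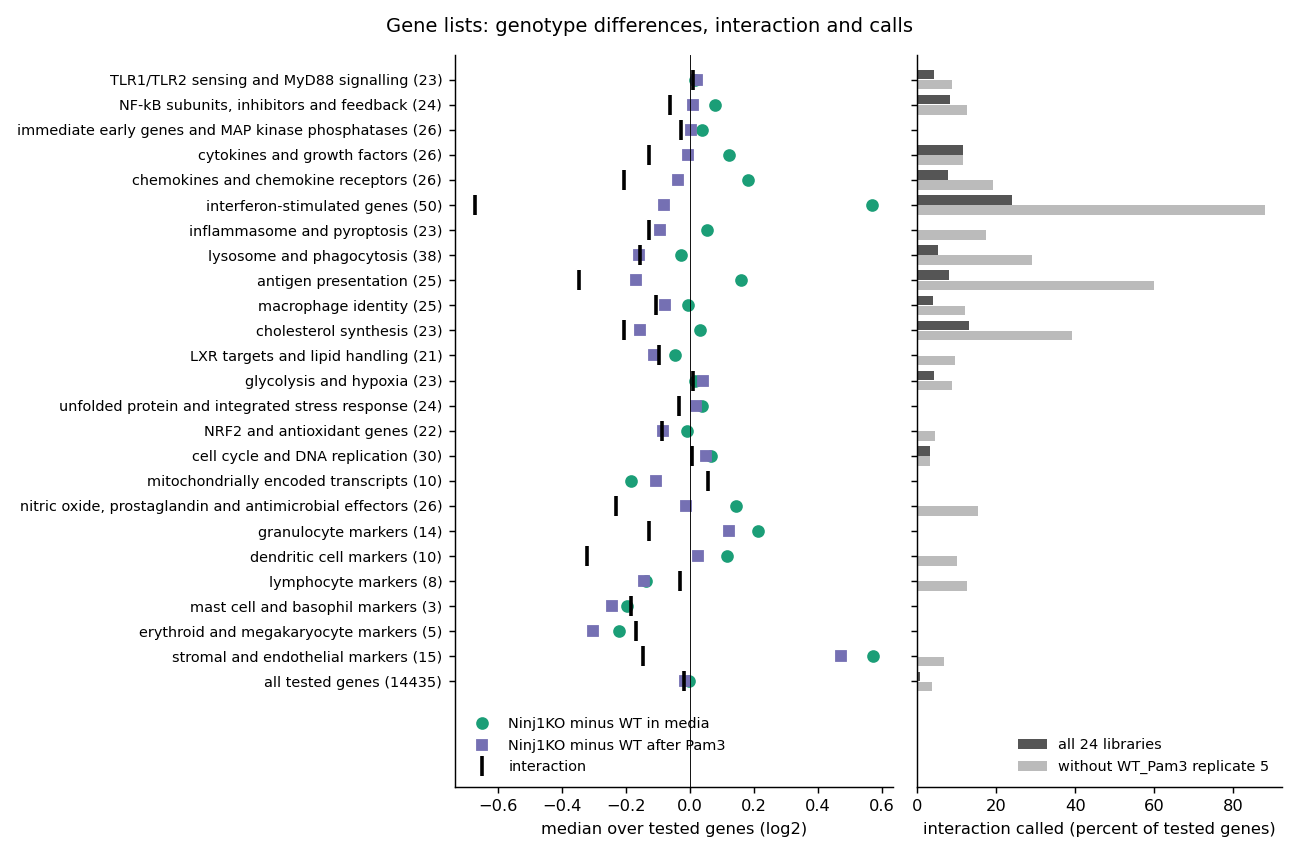
Left, the median over tested genes of each list (number in brackets) of Ninj1KO minus WT in media (circles), Ninj1KO minus WT after Pam3 (squares) and the interaction (bars). Right, the percent of tested genes with a called interaction with all 24 libraries (dark) and without WT_Pam3 replicate 5 (light), led by the interferon-stimulated genes, with 12 and 44 of 50 called.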

How the data were processed

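Per the labels' protocols, polyA RNA was sequenced as single reads of 50 bp after TruSeq v2 preparation, a chemistry without strand information. The submitters' processing notes name GSNAP and GRCm38. The counts were deposited by the authors as uniquely aligned reads per Ensembl gene model, and the RPKM values as size-factor-adjusted, per the file headers. Symbols and coordinates came from GENCODE mouse release 21, for 52489 of 52636 gene models, and the unmatched ones held 0.00387% of reads. Counts were fitted in R 4.3.3 with edgeR 4.0.16 (filterByExpr, TMM, 1 mean per group, quasi-likelihood F-test), and genes were called at a Benjamini-Hochberg adjusted p under 0.05 over all tested genes. CPM use the TMM-scaled library sizes and are not corrected for length. The procedure was also run on simulated counts that held no outlying library. That run does not speak to how WT_Pam3 replicate 5 moves the calls. Alternatives used DESeq2 1.42.0 and limma 3.58.1. The labels number no replicates and give no batch, so replicate numbers are names in accession order only.

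The gene lists and named genes were chosen with earlier results of these data known. Named were Ninj1, Tlr1, Tlr2, Myd88, Nfkbia, Tnf, Il1b and Il6, and, among called genes with at least 20 mean counts in the highest group and no predicted models, the 12 largest interactions and 6 smallest p-values in each direction, the 6 smallest p-values of each class, the 12 largest in each direction without WT_Pam3 replicate 5, and up to 4 per list. Genes named outside this rule were picked after their values were seen. A few genes are not reported here.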

Additional observations from a re-analysis of the deposited data

Results flagged for a closer look

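In 20 of 132 groups of 6 libraries (33 genes in 4 groups) 1 library lay far from the other 5, its gap to the nearest, as a share of the group's range, exceeding Dixon's 95% critical value. Chance would give about 1 in 20 if the groups were independent and unselected. These groups share libraries, and some genes were named by the fit without WT_Pam3 replicate 5. That rate can therefore not be set against the count here. WT_Pam3 replicate 5 was the outlying library in 11 groups. It was high for Ninj1 (1145 CPM), Calhm6 (209), Ifit3 (257), Rtp4 (425), Cxcl16 (928), Ighm (50.3) and H2-DMb1 (58.4), and low for Lonrf1 (9.01), Mertk (26.0), Kdm6b (26.5) and Ptgs2 (1567). Ninj1KO_NoPrime replicate 1 was that library in 7 groups, always high: Ifit3 (167 CPM), Ifit1 (125), Irf7 (439), Rtp4 (189), Tap1 (184), Irf1 (124) and Il15 (26.7). The other 2 were Kif5c in WT_NoPrime replicate 2 (23.3 CPM) and Ninj1 in Ninj1KO_Pam3 replicate 6 (479 CPM).

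The response to Pam3 differed between genotypes, by the test of the difference itself, for 46 of the genes whose values are given in the report, besides those it only lists by name; values are the log2 interaction. In the media class the values below 0 were Tlr2 (-0.24), Ifit3 (-1.18), Ifit1 (-0.96), Irf7 (-0.83), Oasl2 (-0.78), Rtp4 (-0.75), Xaf1 (-0.79), Tgtp2 (-1.12), Irgm1 (-0.69), Tap1 (-0.60), Csf1 (-0.52), Mmp14 (-0.57), Nfkbie (-0.31), Cxcl16 (-0.41) and Cd69 (-0.72), and those above 0 were Il1a (0.73), Fcgr2b (0.30), Lonrf1 (0.55), Il20rb (0.52) and Rims3 (0.67). In the Pam3 class they were Irf1 (-0.53), Mertk (-0.48), Ighm (-0.47), Kif5c (-0.64), Slc37a2 (-0.26), Il15 (-0.43), Insig1 (-0.30), Lss (-0.21), Nsdhl (-0.25), Gla (-0.24) and Cd101 (-1.35) below 0, and Dio2 (0.78), Slc36a1 (0.40), Gpr155 (0.76), Kdm6b (0.48), Plk3 (0.43), Ptpn7 (0.24), Hs6st1 (0.24) and Fam43a (0.49) above 0. Genes that differed in both conditions were Calhm6 (-0.83), P2ry14 (-0.46), Cdkn1a (-0.46) and Hpse (-0.24), and in neither Icam1 (-0.25), Pfkfb3 (0.42) and Ccl7 (-0.58).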

How the results depend on the processing

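Of the 110 called genes, DESeq2 also called 108, limma voom with sample weights 109, edgeR with DESeq2 size factors 101, library size scaling 79, no filter 54, a mean count of at least 50 98 and limma on the deposited RPKM 78. The last, and leaving out both WT_Pam3 replicate 5 and Ninj1KO_NoPrime replicate 1, were chosen after seeing the data. The cause of the changes below was not tested. Voom gave WT_Pam3 replicate 5 a weight of 0.0484. No paired analysis was possible because the labels number no replicates.

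In the order above 0, below 0, media class, Pam3 class, both, neither, genotype difference in media, genotype difference after Pam3 and interferon list, DESeq2 called 82, 258, 141, 150, 16, 33, 694, 884 and 34 genes. Voom called 127, 515, 226, 304, 60, 52, 1343, 1450 and 45, and leaving out both libraries 91, 411, 181, 231, 58, 32, 1056, 1325 and 45. Leaving out each library in turn gave 8 to 102, 20 to 442, 7 to 229, 17 to 235, 1 to 36, 0 to 44, 238 to 1274, 383 to 1178 and 0 to 44. The highest values all came without WT_Pam3 replicate 5.

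Library size scaling gave 54 below 0 and 5 in neither class. No filter gave 41 below 0, 21 in the Pam3 class, 1 in both, 6 in neither and 366 genotype differences after Pam3. RPKM gave 27 in the media class, 6 in neither and 4 of the interferon list, and a mean count of at least 50 gave 5 in neither. Genotype differences at an adjusted p under 0.1 gave 10 in both and 2 in neither, and a size of at least 0.5 left 7 above and 32 below 0. For Ninj1 the interaction, not called under any setting, turned to 0.00325 with library size scaling, 0.036 with voom and 0.0799 without both libraries, and ranged from -0.0928 (without WT_Pam3 replicate 6) to 0.0891 (without WT_Pam3 replicate 5) with 1 library left out.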
